A study of Homo sapiens with 6 samples.

Results

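The insulin receptor (INSR), the type 1 IGF receptor (IGF1R), the IGF2 and mannose 6-phosphate receptor (IGF2R) and the insulin receptor substrates IRS1, IRS2 and IRS4 were followed in T47D cells after inhibition of PI3 kinase. They were read by every probe set (a group of short oligonucleotides summarised to 1 value) that the platform annotation assigns to only 1 of these 6 genes, with symbols updated through the Entrez identifier. This gave 20 probe sets of the 54613 on the array that are not manufacturer's controls: 5 for INSR, 5 for IGF1R, 3 for IGF2R, 3 for IRS1, 2 for IRS2 and 2 for IRS4. T47D is a long-established line from a human breast cancer, luminal and positive for the oestrogen receptor, and GDC-0941 (pictilisib) is an inhibitor of the class I PI3 kinases. The 6 arrays comprised 3 from T47D cells given GDC-0941 for 6 hours and 3 from control T47D cells, whose agent is labelled as none, so whether they received the solvent is not known. The labelled dose is 1 mM, a unit that may have lost a micro sign. Cells of both groups grew in medium with serum, which itself carries IGFs.

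INSR and IGF1R are receptor tyrosine kinases. Once bound by insulin or an IGF they phosphorylate the IRS proteins, scaffolds whose phosphotyrosines bind the regulatory subunits of PI3 kinase, and the lipid product of that kinase activates AKT. AKT in turn phosphorylates FOXO transcription factors and holds them in the cytoplasm, and INSR and IRS2 are known FOXO targets in several tissues. IGF2R has no kinase: it takes up IGF2 for degradation and carries mannose 6-phosphate tagged enzymes to the lysosome.

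The genes' starts are shown first, because IRS2 had the largest difference of the 6, IGF2R the largest among the receptors, and IRS4 none that passed. The 300-base windows of RefSeq (GRCh38.p14), from 250 bases before to 50 after each start, were found for all 6 genes, with a pair of starts for IRS4. Both strands were searched for the FOXO core GTAAACA, for the insulin response sequence CAAAACA, which FOXO factors also bind, and for the E-box CACGTG, a palindrome bound by MYC and by TFEB and TFE3. None of the 7 windows held GTAAACA, which is found in 3.42% of 35116 such windows. The upstream 250 bases are printed 5′ to 3′ on the gene's strand, with matches in capitals.
IRS2, chr13:109786584-109786833, minus strand: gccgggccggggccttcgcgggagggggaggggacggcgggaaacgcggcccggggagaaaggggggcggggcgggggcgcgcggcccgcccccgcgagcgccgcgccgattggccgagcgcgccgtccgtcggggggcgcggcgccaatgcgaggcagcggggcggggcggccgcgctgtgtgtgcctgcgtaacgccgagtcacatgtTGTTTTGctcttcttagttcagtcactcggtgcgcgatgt
IGF2R, chr6:159968832-159969081, plus strand: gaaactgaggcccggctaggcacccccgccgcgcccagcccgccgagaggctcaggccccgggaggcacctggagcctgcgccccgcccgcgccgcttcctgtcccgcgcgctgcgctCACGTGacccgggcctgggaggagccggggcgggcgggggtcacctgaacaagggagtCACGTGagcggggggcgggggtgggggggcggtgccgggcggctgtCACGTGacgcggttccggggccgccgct
IRS4, second start, chrX:108736378-108736627, minus strand: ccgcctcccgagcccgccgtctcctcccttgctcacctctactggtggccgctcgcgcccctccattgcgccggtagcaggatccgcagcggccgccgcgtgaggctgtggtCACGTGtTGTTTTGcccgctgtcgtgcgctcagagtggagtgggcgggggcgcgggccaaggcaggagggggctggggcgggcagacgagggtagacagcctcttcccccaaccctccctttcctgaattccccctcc
The IRS2 window held 1 insulin response sequence, on the opposite strand (TGTTTTG), beginning 40 bases before the start. The same letters were found in 4.92% of all windows, and also 131 bases before the second start of IRS4, next to an E-box. The IGF2R window held 3 E-boxes, beginning 132, 74 and 28 bases before the start. An E-box was found in 7.26% of all windows, and 3 or more in 0.094%. The cut at 3 equals the count in the IGF2R window itself, so the second share is no test of that window. IRS1 held 1 E-box, after its start, and the windows of INSR and IGF1R held none of the 3 motifs. These matches describe letters only.

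Values are log2 signals made by RMA (background correction, normalization between arrays and summary of each probe set), so they are relative to the other transcripts on an array. Probe sets differ in how well they bind, so signals of different probe sets, and the percentiles given for them, describe brightness and do not rank transcript levels. The arrays had medians of 7.34 to 7.38, and across probe sets they correlated at r = 0.997 to 0.9983 within a group and at 0.9917 to 0.9942 between groups. All 9 luminal epithelial markers examined had a mean signal at percentile 97.6 of all probe sets or above. With treatment 3 of them were called higher (FOXA1 by 0.54, PGR by 0.42 and CDH1 by 0.19 on the log2 scale), 2 lower (KRT8 and KRT18, with log2 differences of -0.23 and -0.21) and 4 not, in limma over all genes. KRT5, KRT14 and VIM, markers of basal or mesenchymal cells, and PTPRC, a leukocyte marker, lay at percentiles 64.1, 24.6, 65.2 and 25.1, and none of them was called. PECAM1, of endothelium, lay at percentile 82.8 and differed by 0.01. COL1A1, a collagen gene typical of fibroblasts, lay at 92.8 and read 11.03, 10.97 and 10.90 under GDC-0941, against 10.47, 10.45 and 10.29 in controls. Its log2 difference of 0.56 ± 0.07 (SE, n = 3 each; adjusted p = 6.53e-05 in limma over all genes) stands beside 0.52 for IGF2R. The part of these markers in the results was not tested. In RNA from a whole culture, fewer cells carrying a transcript and less of it per cell cannot be told apart. The precision of all values is limited by the number of arrays. The labels do not say whether replicates were separate cultures, so the p-values reflect only how far these samples scatter, possibly for technical reasons.

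Of the 6 genes, 5 were represented by a probe set that rose after GDC-0941. At the level of probe sets, 10 of 20 were higher and 0 lower at an adjusted p of 0.05 in limma, where 8.88% of all probe sets were higher and 9.89% lower. At an unadjusted p of 0.05 the counts were 11 and 0, where 13.9% of all probe sets were higher and 15.6% lower, and limma with array weights called 1 lower, the dim 208441_at of IGF1R. In 11 of the 20 the 3 treated arrays all lay above the 3 controls, as they did in 15.6% of all probe sets, and in 0 of the 20 they all lay below, as they did in 18.8% of all. The median log2 difference was 0.22 over the 20 and -0.01 over all probe sets. The 6 genes were chosen with earlier results of these data known, so the shares of all probe sets describe the setting and test nothing. IRS2 had both of its probe sets called, INSR, IGF1R, IGF2R and IRS1 had 2 each, and IRS4 had 0.

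With 1 probe set a gene, the one with the highest mean signal, 5 of the 6 genes were higher and 0 lower in limma, where 12.1% of all 19775 genes were higher and 15.6% lower. At an unadjusted p of 0.05 the counts were also 5 and 0, beside 15.9% and 20.8% of all genes. As the 6 were chosen with earlier results of these data known, these shares do not test them either. The call of INSR in this fit (adjusted p = 0.0259) was lost without GDC-0941 replicate 1 or 3 or control replicate 1 or 3 (0.0592 to 0.123). The same 5 had their 3 treated arrays above the 3 controls, as 17.5% of all genes did, and 0 had them all below, as 24% of all genes did. By size of rise IRS2 ranked 4 among the 19775 genes, IGF2R 423, IRS1 553, IGF1R 1804 and INSR 2176.

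**Figure D1:**
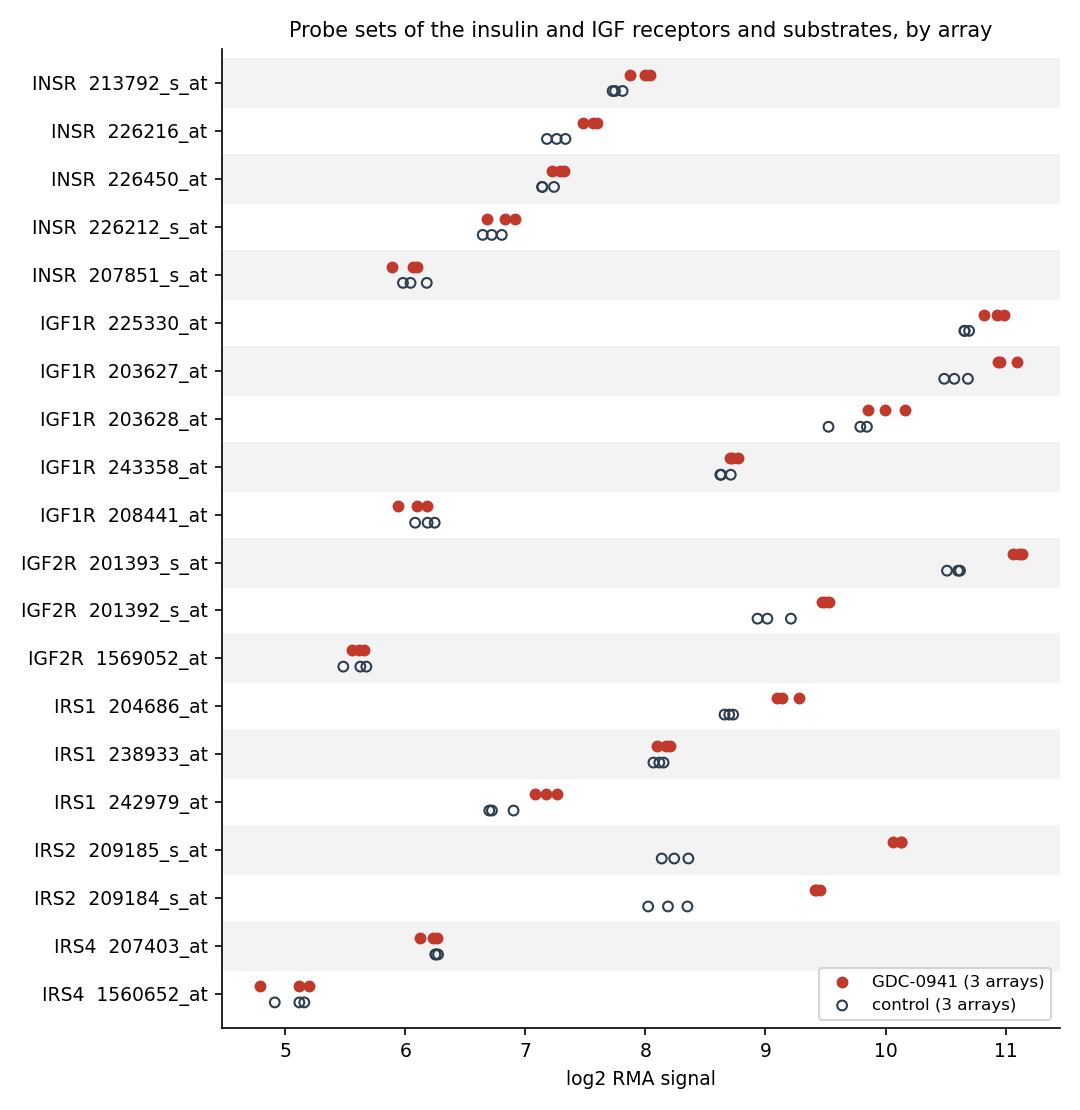
Log2 RMA signal of the 20 probe sets on each of the 6 arrays, with GDC-0941 arrays as filled points above the open points of the controls in each row, rows grouped by gene and ordered by mean signal. The groups are farthest apart for the 2 IRS2 probe sets, and the treated and control points overlap for 9 probe sets, among them both of IRS4.

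IRS2, the substrate best known for carrying insulin signals in liver and in the pancreatic beta cell, showed the largest difference among the 6. Its probe set 209185_s_at read 10.13, 10.06 and 10.13 on the GDC-0941 arrays, against 8.36, 8.24 and 8.14 on the control arrays. The lowest treated array thus stood 1.71 above the highest control. The log2 difference was 1.86 ± 0.07 (SE, n = 3 each; 95% interval 1.71 to 2.01), a 3.63-fold higher signal, with an adjusted p of 9.42e-08 in limma over all probe sets.

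The other IRS2 probe set, 209184_s_at, read 9.45, 9.41 and 9.42 under GDC-0941, against 8.19, 8.35 and 8.02 in controls. Again no treated array came near a control. Its log2 difference was smaller, at 1.24 ± 0.08 (SE, n = 3 each; 95% interval 1.06 to 1.42; adjusted p = 3.69e-06 in limma), or 2.36-fold. The signal of 209185_s_at minus that of 209184_s_at was 0.68 ± 0.03 on treated arrays and 0.06 ± 0.15 on control arrays (mean ± SD, n = 3 each). This gap of 0.62 had an exact two-sided permutation p of 0.1, the smallest that 3 arrays against 3 allow (0.15 adjusted over the 6 within-array comparisons made). On these arrays the estimated size of the IRS2 rise differed between its probe sets, and its direction did not. This pair was compared after the values were seen, in a test that cannot go below 0.1. Both sets carry the suffix _s_at, which marks a match to several transcripts, and IRS2 had no probe set without it.

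IRS1, the substrate that carries most insulin and IGF signals in muscle and in many epithelial cells, rose by less. Probe set 204686_at read 9.28, 9.09 and 9.14 under GDC-0941, against 8.73, 8.66 and 8.70 in controls. The log2 difference was 0.47 ± 0.07 (SE, n = 3 each; adjusted p = 0.000493 in limma), or 1.39-fold. A dimmer probe set, 242979_at, separated the groups as well, with 7.27, 7.08 and 7.18 against 6.72, 6.90 and 6.70 in controls (log2 difference 0.40 ± 0.08, SE; adjusted p = 0.00327 in limma). The remaining IRS1 probe set, 238933_at, had a treated mean of 8.16 and a control mean of 8.11, with overlapping groups and a 95% interval of -0.09 to 0.18. That interval lies below the differences of the other IRS1 probe sets, so the 3 did not read the same change.

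Within an array, the signal of IRS2 minus that of IRS1 was 0.85, 0.97 and 0.99 under GDC-0941, against -0.37, -0.42 and -0.56 in controls. The balance of both substrates shifted by 1.39 ± 0.07 on the log2 scale (SE, n = 3 each), with an exact two-sided permutation p of 0.1, the smallest the design allows. That size belongs to the brightest probe set of each gene. With all probe sets of a gene averaged, the shift was 1.25. The same p was found for IRS2 against IGF2R, where the shift was 1.34 ± 0.10 (SE). A design of this size cannot pass 0.05 in that test. Its smallest p is reached where treated and control arrays do not overlap, as in both pairs, so the lack of overlap adds nothing to it. Adjusted over the 6 within-array comparisons made, the permutation p was 0.15 for each pair. IRS2 against IGF2R was compared after the values were seen.

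IRS4, a substrate whose expression is restricted to few tissues, did not pass. Its brighter probe set, 207403_at, read 6.12, 6.26 and 6.24 under GDC-0941 and 6.25, 6.27 and 6.25 in controls, with overlapping groups. The log2 difference was -0.05 with a 95% interval of -0.19 to 0.08 (adjusted p = 0.653 in limma), which leaves out a rise of the size seen for IRS1 or IRS2. The other, 1560652_at, had means of 5.03 ± 0.21 and 5.06 ± 0.13 (SD, n = 3 each) in treated and control cells and an interval of -0.26 to 0.20. These sets lay at percentiles 25.7 and 11.2 of the signals of all probe sets. RMA values carry no detection call, so whether they read IRS4 transcript in T47D is not known.

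**Figure D2:**
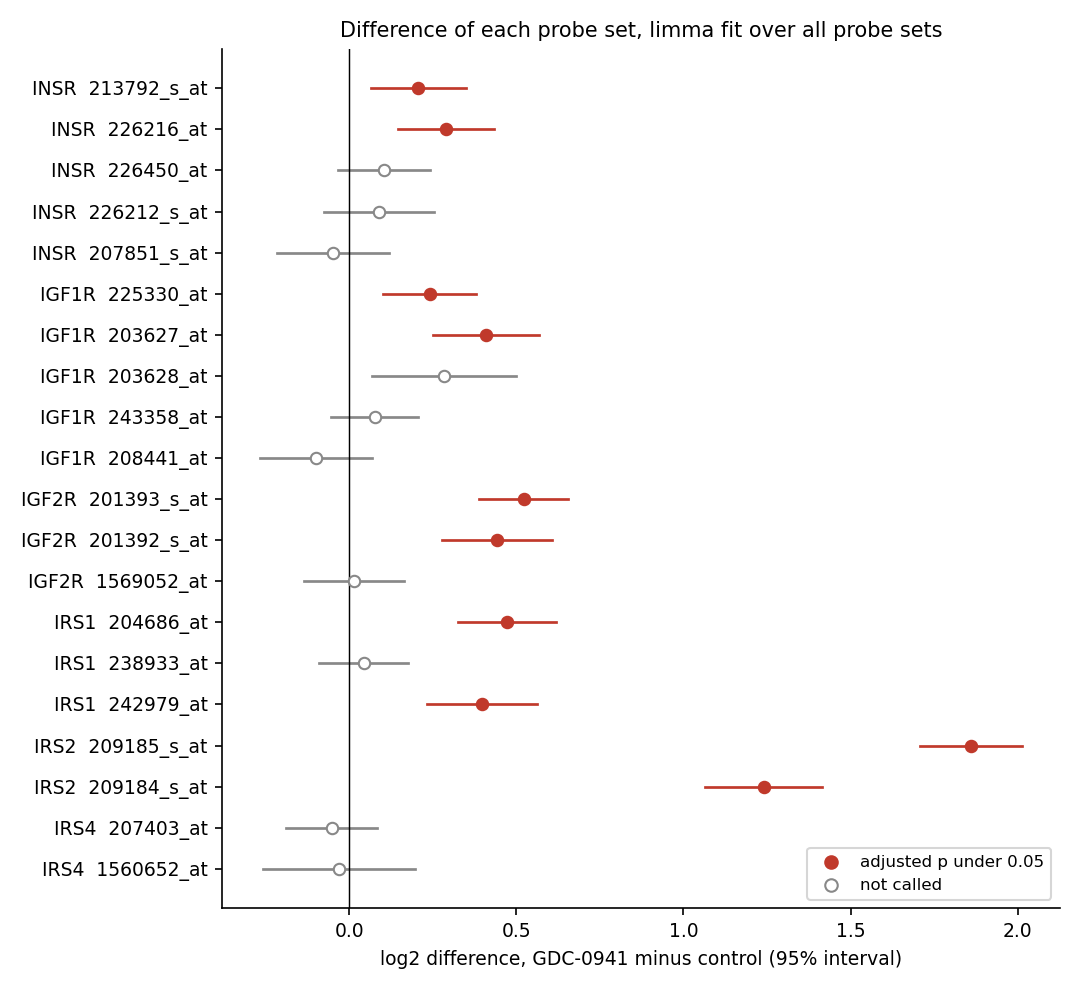
Log2 difference, GDC-0941 minus control, of each of the 20 probe sets with its 95% interval from the limma fit over all probe sets; filled red points passed an adjusted p of 0.05. IRS2 stands at 1.86 and 1.24, the called probe sets of the other genes between 0.21 and 0.52, and both IRS4 intervals include 0.

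Among the receptors the largest difference was that of IGF2R. Probe set 201393_s_at read 11.11, 11.06 and 11.13 under GDC-0941, against 10.51, 10.60 and 10.62 in controls. Every treated array was at least 0.44 above every control. The log2 difference was 0.52 ± 0.06 (SE, n = 3 each; adjusted p = 0.000156 in limma), or 1.44-fold. Probe set 201392_s_at gave a like difference of 0.44 ± 0.08 (SE; adjusted p = 0.00171 in limma), with means of 9.50 ± 0.03 in treated and 9.05 ± 0.14 in control cells (SD, n = 3 each). The dim probe set 1569052_at differed by 0.02 (95% interval -0.13 to 0.16) and lay at percentile 16.8 of all signals. It is the IGF2R probe set without the suffix that marks a match to several transcripts, and where such sets were preferred the gene was not called (adjusted p = 0.909 in limma over all genes).

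IGF1R, which binds IGF1 and IGF2 and signals through IRS proteins, was higher by both of its brightest probe sets. Probe set 203627_at read 11.09, 10.93 and 10.95 under GDC-0941, against 10.49, 10.57 and 10.69 in controls, a log2 difference of 0.41 ± 0.07 (SE, n = 3 each; adjusted p = 0.00211 in limma). Probe set 225330_at read 10.99, 10.82 and 10.93 against 10.70, 10.66 and 10.66 in controls, a difference of 0.24 ± 0.06 (SE, n = 3 each; adjusted p = 0.0205 in limma). The groups did not overlap in either, but the call of 225330_at was lost without GDC-0941 replicate 1 or 3 or control replicate 2 or 3 (adjusted p 0.0534 to 0.0747 in limma). Their mean signals were 10.788 and 10.791, so the choice of the brightest probe set rested on a near tie, and it set the fold for the gene at 1.18 where the other gives 1.33. The signal of 203627_at minus that of 225330_at was 0.106, 0.113 and 0.024 on treated arrays, against -0.207, -0.084 and 0.026 on controls. This shift of 0.17 ± 0.07 (SE, n = 3 each; exact two-sided permutation p = 0.2) came with groups that overlapped by 0.002, and a test that cannot go below 0.1 does not show that both sets read the same change.

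The remaining IGF1R probe sets were not called. In 203628_at the treated arrays, at 10.16, 9.85 and 10.00, all lay above the controls, at 9.53, 9.79 and 9.85, but the margin was 0.01 and the adjusted p 0.0676 in limma. It was called in 7 of 13 alternative settings: without GDC-0941 replicate 2 (adjusted p = 0.0447) or control replicate 3 (0.0411), with a further quantile normalization (0.0331), a variance trend (0.0222), array weights (0.0111), the level filter (0.0236) or hybridisation control centring (0.00019). Probe set 243358_at differed by 0.08 (95% interval -0.06 to 0.21). The dim 208441_at, at percentile 23.8, differed by -0.10 (95% interval -0.27 to 0.07).

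By brightest probe set, INSR had the smallest rise among the 5 called genes, an order that turned against IGF1R where probe sets without a suffix were preferred (0.29 for INSR and 0.24 for IGF1R). Its brightest probe set, 213792_s_at, read 7.997, 7.871 and 8.038 under GDC-0941, against 7.727, 7.810 and 7.747 in controls. The groups were parted by 0.06 and the log2 difference was 0.21 ± 0.07 (SE, n = 3 each; adjusted p = 0.0473 in limma). That call was lost without GDC-0941 replicate 1 or 3 or any of the control replicates (adjusted p 0.0783 to 0.184) and with arrays centred on their medians (0.0584). Probe set 226216_at was firmer, with 7.48, 7.56 and 7.60 against 7.33, 7.26 and 7.18 in controls, a difference of 0.29 ± 0.07 (SE; adjusted p = 0.00882 in limma) that passed without any single array. The other 3 probe sets, 226450_at, 226212_s_at and 207851_s_at, differed by 0.10, 0.09 and -0.05 with overlapping groups, and had lower mean signals than the called pair.

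The change of IGF1R relative to INSR within an array was 0.03 ± 0.05 (SE, n = 3 each; exact two-sided permutation p = 0.6). IGF2R shifted against IGF1R by 0.28 ± 0.06 (SE, n = 3 each) without overlap between treated and control arrays, at the smallest p of 0.1. Both of these compare the brightest probe sets and carry the near tie of IGF1R with them.

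Calls were more frequent among brighter probe sets, on the array as a whole as well as among the 20. Of the 12 with a mean above the median of all probe sets (7.36), 9 were higher, where 13.7% of all probe sets above that median were, and the median log2 difference was 0.35. Of the 8 below it, 1 was higher, 242979_at of IRS1, where 4.11% of all probe sets below it were, and the median difference was -0.01. Of the 8 uncalled probe sets of the 5 genes with a call, 238933_at of IRS1 was brighter than a called set of its gene, and the other 7 were dimmer. None of the 20 was called in the opposite direction to another set of its gene in this fit.

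The 5 genes listed next had profiles most like IRS2 over the 6 arrays, by the root mean square difference between log2 signals centred on each gene's mean. They were CREBRF (0.085), CCNG2 (0.0876), YPEL2 (0.163), KLHL24 (0.194) and SKAP2 (0.203). CREBRF regulates the CREB3 family, CCNG2 is a cyclin linked to cell cycle exit, and KLHL24 is an adaptor of a ubiquitin ligase. Their log2 differences were 2.01, 1.93, 1.57, 2.09 and 1.52, against 1.86 for IRS2. The measure is dominated by the gap between treated and control arrays, which all 6 genes share. With all probe sets of a gene averaged, YPEL2 differed by 0.71, CCNG2 by 1.24, CREBRF by 1.29 and SKAP2 by 0.97. KLHL24 then differed by more, at 2.21, and IRS2 by 1.55.

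**Figure D3:**
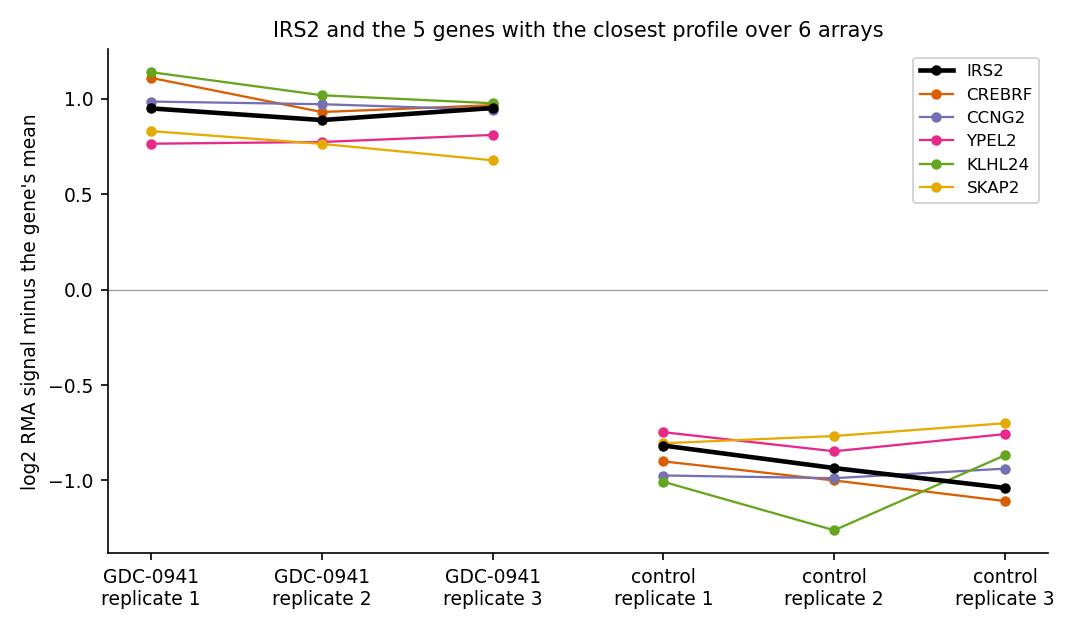
Log2 RMA signal minus each gene's mean over the 6 arrays for IRS2 (black) and the 5 genes closest to it, with GDC-0941 arrays on the left and controls on the right. All 6 genes lie above 0 on each treated array and below 0 on each control array, IRS2 at 0.89 to 0.95 on treated arrays and at -0.82 to -1.04 on controls.

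Other genes around these receptors did not move together. Of 68 in 4 lists, 64 had a probe set used here; IGF2, whose probe sets also name INS-IGF2, and 3 docking partners and adaptors were not analysed here. Of the 64, 10 were higher and 9 lower in limma, or 29.7% called, where 27.8% of all genes were called, and the median log2 difference was 0.00. Without control replicate 2 the count of lower genes was 5. The split turned with the scaling: with the arrays shifted to equal hybridisation controls 22 were higher and 2 lower, a setting that moved the median of all genes to 0.15, against -0.02 as deposited.

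Of 10 ligands and binding proteins 1 was higher and 2 lower, or 30% called, beside 27.8% of all genes. INS, IGF1 and IGFALS, a carrier of circulating IGFs, differed by -0.01, -0.03 and 0.04 without a call, as given after their values were seen. IGFBP5, a secreted binder of IGFs, rose to 13.36 ± 0.02 under GDC-0941, against 13.16 ± 0.04 in controls (SD, n = 3 each; adjusted p = 0.0169 in limma), a call lost without GDC-0941 replicate 3, control replicate 2 or control replicate 3 and with all its probe sets averaged (adjusted p = 0.119). IGFBP2 was lower, at 11.44 ± 0.10 against 11.74 ± 0.04 in controls (adjusted p = 0.00349 in limma), and IGFBP6 fell by 0.21 (adjusted p = 0.0128 in limma), both no longer called with hybridisation control centring. IGFBP6 was also lost without GDC-0941 replicate 3 or control replicate 2 (adjusted p 0.0517 and 0.0646 in limma).

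Of 18 docking partners and adaptors 3 were higher and 2 lower, or 27.8% called, the same share as among all genes. GRB14, which binds the active insulin receptor and inhibits its kinase, showed the largest difference, at 8.48 ± 0.19 under GDC-0941 against 7.87 ± 0.13 in controls (SD, n = 3 each; log2 difference 0.61, adjusted p = 0.000435 in limma). The docking proteins GAB1 and GAB2, which recruit PI3 kinase and SHP2, rose by 0.36 and 0.35 (adjusted p = 0.000872 and 0.00215 in limma). Averaged over all its probe sets, GAB1 differed by 0.24. GRB2, the adaptor to SOS and RAS, and PHIP, a binder of IRS1, fell by 0.21 each (adjusted p = 0.0297 and 0.0142 in limma), and neither was called with hybridisation control centring. Single arrays decided both: GRB2 was lost without GDC-0941 replicate 2 or 3 or control replicate 1 or 3 (adjusted p up to 0.0935 in limma), and PHIP without control replicate 1 or 2 (0.0541 and 0.0631). The average over all probe sets of PHIP differed by -0.04 (adjusted p = 0.631 in limma). The PI3 kinase regulatory subunits PIK3R1 and PIK3R3 were not called, with differences of 0.06 and 0.04, chosen after their values were seen.

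Of 18 genes of turnover and negative regulation 3 were higher and 2 lower, or 27.8% called, again the share among all genes. CBLB, a ubiquitin ligase of activated receptors, rose to 8.51 ± 0.24 under GDC-0941, against 7.94 ± 0.15 in controls (SD, n = 3 each; log2 difference 0.58, adjusted p = 0.00185 in limma). SOCS2, a feedback inhibitor of cytokine and growth hormone signals, rose by 0.49 (adjusted p = 0.000237 in limma) at a low signal of 6.40 ± 0.08 against 5.91 ± 0.10 in controls. Averaged over all probe sets of the gene, CBLB differed by 0.35 and SOCS2 by 0.28. PTPRF, a receptor phosphatase, rose by 0.24 (adjusted p = 0.00752 in limma), but differed by -0.01 where probe sets without the several-transcript suffix were preferred and was not called with all of them averaged (0.13, adjusted p = 0.0749). TRIB3, a pseudokinase that binds AKT, fell by 0.49 (adjusted p = 0.000142 in limma) and IDE, the protease that degrades insulin, by 0.38 (adjusted p = 0.000906 in limma; not called with hybridisation control centring).

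The last list joined receptor processing, transcription factors chosen for acting on INSR, IGF1R or IRS2, and others such as INSRR, CAV1 and the IGF2BP genes. Of its 18 genes 3 were higher and 3 lower, or 33.3% called, beside 27.8% of all genes. FOXO3 rose to 11.00 ± 0.04 under GDC-0941, against 10.08 ± 0.01 in controls (SD, n = 3 each; adjusted p = 7.24e-07 in limma). Its log2 difference of 0.925 became 0.55 with all its probe sets averaged. FOXO1 rose by 0.42 (adjusted p = 0.00132 in limma; 0.18 with all its probe sets averaged) and SP1, which binds GC-rich promoters such as those of the receptors, by 0.34 (adjusted p = 0.000868 in limma). FOXO4, TFEB and TFE3 were not called, with overlapping groups and differences of 0.23, -0.08 and -0.07, given after their values were seen. WT1, known to repress the IGF1R promoter, fell by 0.58 (adjusted p = 0.000245 in limma), at 8.03 ± 0.18 against 8.61 ± 0.03 in controls. HMGA1, which binds the INSR promoter, and INSRR, the receptor related to INSR, fell by 0.21 each (adjusted p = 0.0215 and 0.0171 in limma), and neither was called with hybridisation control centring. HMGA1 was also lost with all its probe sets averaged (adjusted p = 0.0757), and without GDC-0941 replicate 2 or 3 or control replicate 2 or 3 (adjusted p up to 0.0956 in limma), and INSRR without GDC-0941 replicate 3 or control replicate 2 or 3 (up to 0.0724).

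**Figure D4:**
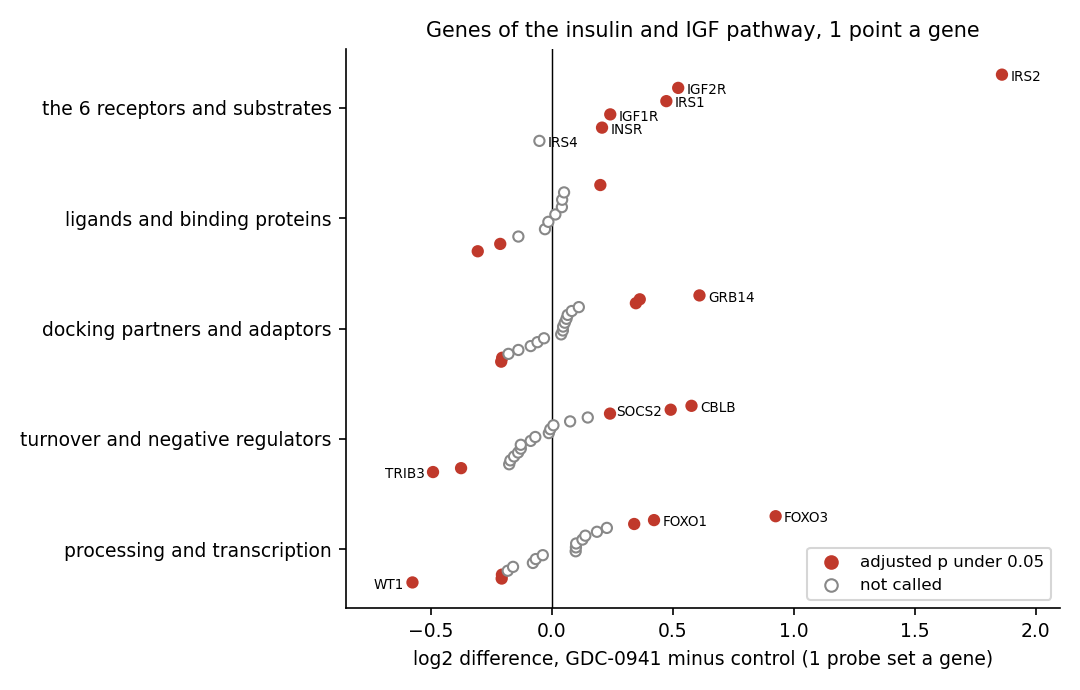
Log2 difference, GDC-0941 minus control, of the 6 receptors and substrates and of 64 other genes of the pathway in 4 lists, 1 probe set a gene; filled red points passed an adjusted p of 0.05. In the top row 5 of 6 genes are called, all to the right of 0, and the other rows hold 10 called genes to the right of 0 and 9 to the left.

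The calls of the 6 genes were set against 15 alternative settings, of which not all could lower a rise. Centring on hybridisation controls raised every difference. Preferring probe sets without a suffix left IRS2, IRS1 and IGF1R at 1.86, 0.47 and 0.24. IRS2, IRS1 and IGF1R were called in all 15, with log2 differences of 1.55 to 2.03, 0.31 to 0.64 and 0.18 to 0.41. For IGF1R the adjusted p reached 0.042 in limma over all genes. In the fit over all probe sets its brightest set, 225330_at, was called in 9 of 13 settings. IGF2R was called in 14 of 15. INSR had 14 values, as its signal was under the level filter, and was called in 8. IRS4 was called in 0 of 14.

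**Figure D5:**
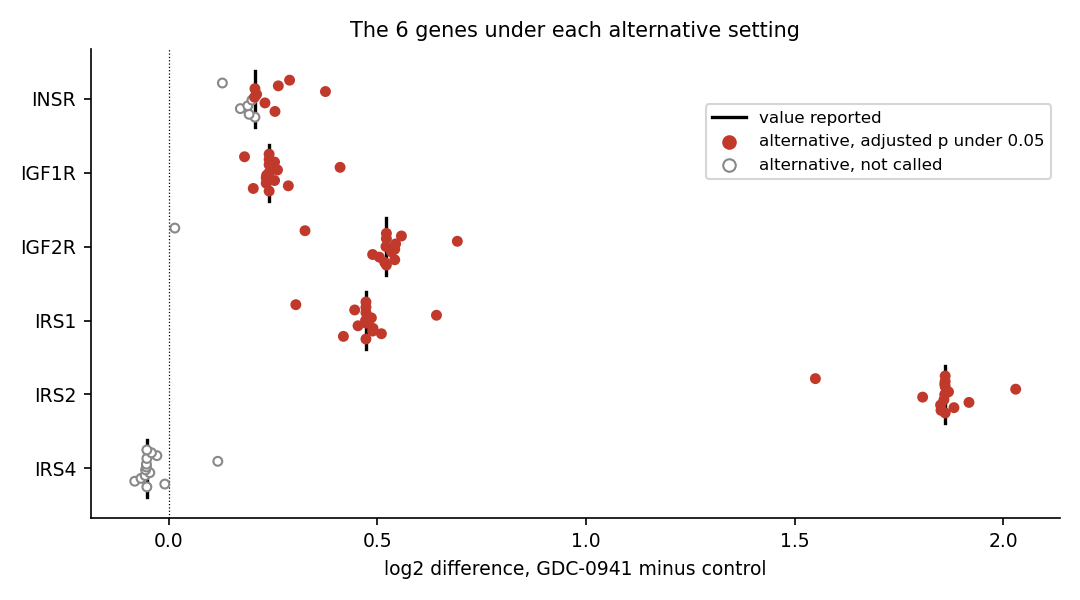
Log2 difference, GDC-0941 minus control, of the 6 genes under each alternative setting (points, filled red where the adjusted p was under 0.05) and as reported (black bar). IRS2, IRS1 and IGF1R have filled points throughout, INSR has 6 open points, and IGF2R has 1 open point near 0.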

How the data were processed

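The deposited table holds log2 signals of 6 oligonucleotide arrays that the authors made with RMA, per the submitters' processing notes, which name no version or software; the scale was read from the range of the values. Per the labels' protocols, biotinylated cRNA was made from 6 ug of total RNA. Of 54675 probe sets, 62 manufacturer's controls were left out. The annotation names 1 gene for 41091 of the rest, and 41037 of their symbols were updated through the Entrez identifier.

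The contrast GDC-0941 minus control was fitted by lmFit and eBayes of limma 3.58.1 under R 4.3.3 (two-sided, Benjamini-Hochberg adjustment, called at 0.05), over 54613 probe sets and over 19775 genes, each by its probe set with the highest mean, with no filter on dim signals. The fit was tested on simulated data. Within-array differences were compared by exact permutation over 20 splits of the arrays. Members and lists were chosen with earlier results of these data known, and 5 of the 6 within-array pairs were added after the values were seen. Named genes were the 6 members, the 5 closest to the member with the largest difference, and from each list up to 3 called genes in each direction. Same-numbered arrays deviated from their group means with correlations of -0.344, 0.139 and -0.027, and differently numbered arrays with -0.363 to 0.354. As the numbers are not known to pair samples, no pairing was used. With 3 arrays a group these correlations cannot show that samples were unpaired. The alternatives were a replicate block, each array left out, 3 further scalings (1 on 18 hybridisation controls, for bacterial and phage transcripts), a variance trend, array weights, a level filter and other choices of probe set. Figures were drawn with matplotlib 3.10.9.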

Additional observations from a re-analysis of the deposited data

How the results depend on the processing

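Leaving out 1 array at a time gave 8 to 11 higher and 0 lower of the 20 probe sets (10 and 0 with all arrays), and 4 or 5 higher and 0 lower of the 6 genes, INSR being the gene that was lost. The pathway lists then gave 9 to 10 higher and 5 to 13 lower, the 5 without control replicate 2. The difference of IRS2 over IRS1 stayed between 1.33 and 1.43 with single arrays left out, and was 1.25 with all probe sets of a gene averaged. A replicate block, whose numbers are not known to pair samples, ended the calls of INSR (0.21, adjusted p = 0.0568 for the gene and 0.0965 for 213792_s_at) and of HMGA1 (adjusted p = 0.0517) and no other call of a named gene or member probe set. Centring on hybridisation controls raised every difference by the same amount: all probe sets then gave 12875 higher and 1445 lower (4851 and 5400 as deposited), all genes 5688 and 895 (2398 and 3090), and the lists 22 and 2. Array weights, whose estimation stopped before converging, gave 7999 and 8902 of all probe sets, 4235 and 5176 of all genes, 16 and 17 of the lists, and 1 of the 20 probe sets lower (208441_at of IGF1R, -0.22, adjusted p = 0.0177 in limma); the cause was not tested. PTPRF turned to -0.011 with unmarked probe sets first (adjusted p = 0.94). Averaging all probe sets of a gene ended 5 calls of named genes: INSR (0.13, adjusted p = 0.0721), PHIP, PTPRF, IGFBP5 and HMGA1. It made 11 called differences smaller by over 1.5 times, among them IGF2R (0.33) and IRS1 (0.31), and 1 larger, WT1 (-0.92). Over all alternatives, member probe sets lost 11 calls and gained 9 among 252 values, and no called member probe set or gene changed sign. Signal over background limits what can be said of the dim probe sets, as RMA values carry no detection call.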
